A study of Homo sapiens with 2 samples.

Results

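The genes examined here encode mitochondrial ribosomal proteins. They were taken as every row of the count table whose symbol begins with MRPL or MRPS followed by a number, which gave 77 of the 19927 genes, 49 with MRPL (large subunit) and 28 with MRPS (small subunit) symbols. The cells were Huh7, an established human hepatocellular carcinoma line, grown for 48 h with DMSO, the solvent, or with the antihistamine homochlorcyclizine dihydrochloride (HD), at a dose the labels do not state. Poly(A)-selected mRNA was sequenced from 1 library per group, so every comparison is of 1 library with 1 other and carries neither a replicate check nor a p-value.

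Mitochondria keep a small genome of their own and translate its mRNAs, all of which encode subunits of the respiratory chain and ATP synthase, on ribosomes that differ from those of the cytosol. The ribosomal RNAs come from the mitochondrial genome, while every protein of these ribosomes is encoded in the nucleus, made in the cytosol and imported. Some of the proteins descend from bacterial ribosomal proteins and others were added during the evolution of mitochondria.

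The DMSO library held 38133894 counts and the HD library 40791119. Levels are given as CPM (library-size-normalised counts) after scaling of the library sizes with TMM factors, and ratios are HD over DMSO. The interval after a ratio is its exact 95% counting interval (Clopper-Pearson), which covers counting error only. Of the 77 members, 76 averaged 1 CPM or more across the 2 libraries and are called measured, as are 12353 genes of the whole table. A gene was counted as lower or higher when its ratio was past a stated fold and its interval excluded 1. The hepatocyte and hepatoma markers of the fixed list were all measured (9 of 9, summed 25100 CPM in DMSO and 22342 CPM in HD). Of 6 leukocyte markers 3 were measured, with a summed level of 464 CPM in DMSO and 547 CPM in HD that was mostly LYZ (446 and 527 CPM), while PTPRC and CD3E had at most 6 counts in either library. Of 4 endothelial markers 1 was measured, PECAM1, at 11.7 CPM in DMSO and 5.63 CPM in HD, with KDR at 0 counts in both. Of 5 fibroblast markers 2 were measured. All 5 summed to 10.5 CPM in DMSO and 10.6 CPM in HD, and 1 of them, COL1A2, had 0 counts in both.

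Nearly the whole family was lower in the HD library. Of the 76 measured members, 75 had a ratio below 1, against 51.1% of all measured genes, and 72 had an interval wholly below 1, against 40% of all measured genes. For 0 members was the interval wholly above 1, against 37.8% of all measured genes. The median log2 ratio was -0.50, which is 70.8% of the DMSO level, while the median over all measured genes was -0.01. The middle 50% of members lay between log2 ratios of -0.65 and -0.34, and that of all measured genes between -0.35 and 0.33. Together the members took 0.516% of all counts in the DMSO library (exact interval 0.514 to 0.519) and 0.361% in the HD library (0.359 to 0.363).

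The size of the difference was modest. With a 2-fold rule, 2 members were lower, against 5.1% of all measured genes, and 0 were higher, against 5.81%. With a 1.5-fold rule, 29 of 76 (38.2%) were lower, against 14.1% of all measured genes, and 0 were higher, against 14.1%. A total of 73 members (96.1%) lay within 0.5 of the family's own median on the log2 scale, a distance that held 65.7% of all measured genes around their median. Short genes had somewhat lower ratios across the table (Spearman's rho of 0.14 between ratio and gene length over 12353 genes), and members were short, with a median length of 1285 bases against 3280. With the length trend removed, the family's median was -0.41, 71 members stayed below 1, and the 2-fold and 1.5-fold rules counted 0 and 19 members as lower.

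**Figure D1:**
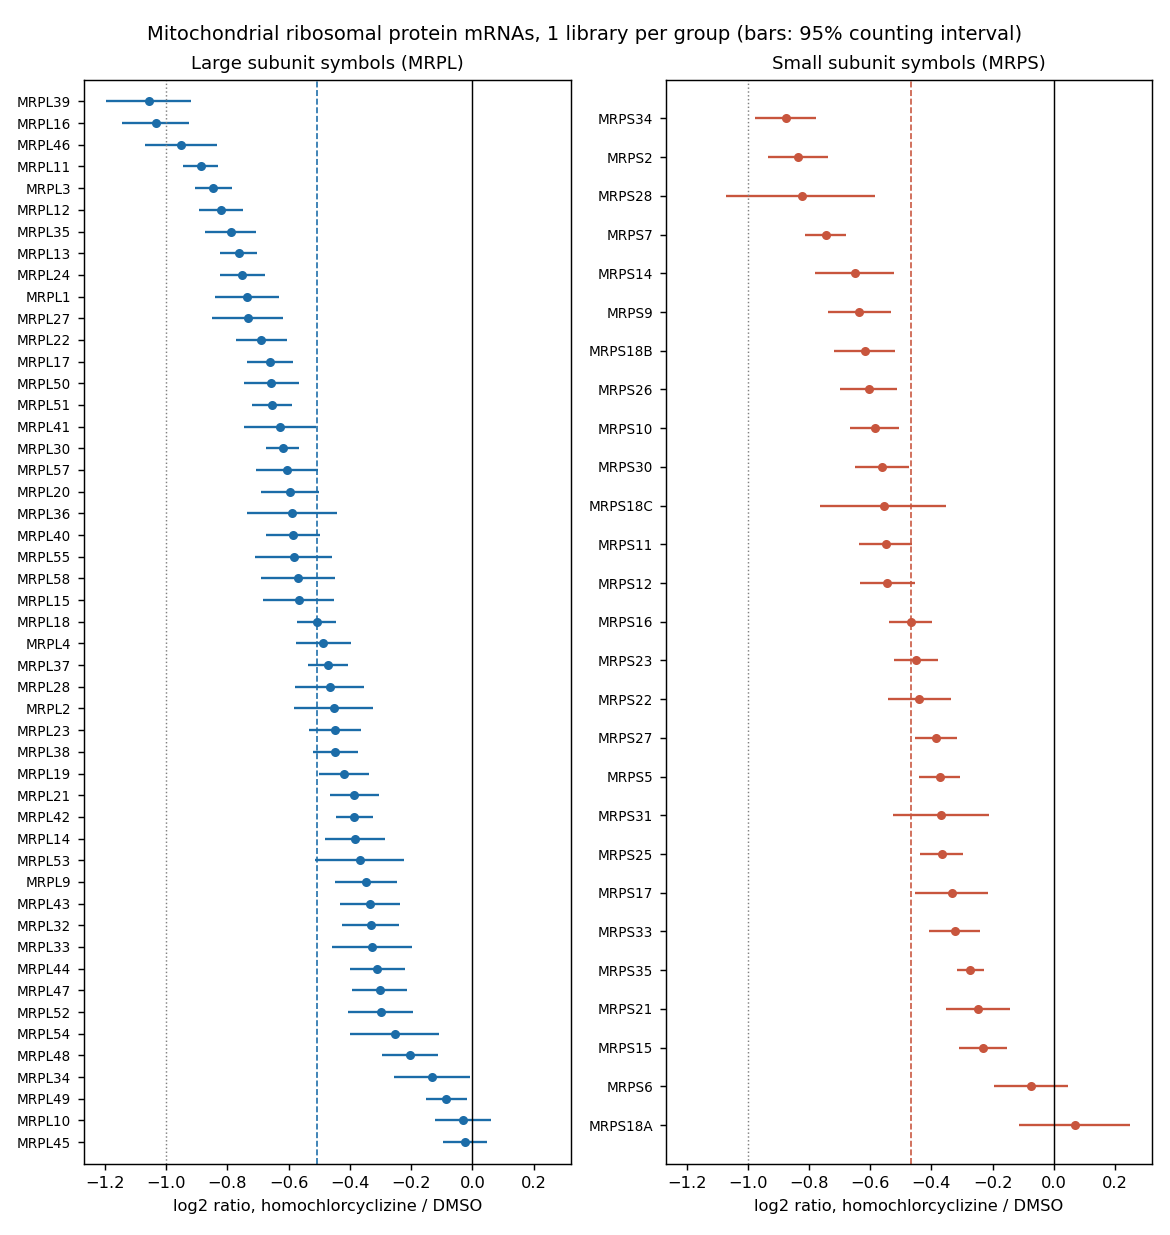
Log2 ratio of each of the 76 measured members, HD over DMSO, with MRPL symbols on the left and MRPS symbols on the right. Points are ratios, bars are 95% counting intervals, dashed lines mark the median of each panel (-0.51 and -0.47), and the dotted line marks 2-fold lower. All points but that of MRPS18A lie left of 0.

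The 49 large subunit genes had a median log2 ratio of -0.51 (range -1.06 to -0.02) and the 27 measured small subunit genes a median of -0.47 (range -0.88 to 0.07). The large minus small difference of medians was -0.04, and of means -0.05. With 1 library per group, whether the subunits differ was not tested. All 49 large subunit genes and 26 of 27 small subunit genes were below a ratio of 1, against 51.1% of all measured genes. By the 1.5-fold rule 20 of 49 large (40.8%) and 9 of 27 small subunit genes (33.3%) were lower. The share of all measured genes was 14.1%. Both 2-fold lower genes were among the 49 of the large subunit, where 5.1% of all measured genes were 2-fold lower. Summed over genes, large subunit mRNAs were at 3387 CPM in DMSO and 2331 CPM in HD, a ratio of 0.688, and small subunit mRNAs at 1765 and 1286 CPM, a ratio of 0.729. With the length trend removed the difference of medians turned to 0.023, and with GC content and length trends both removed it was -0.026. The large subunit genes were shorter, with a median length of 1207 bases against 1479.

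Symbols do not always give the place of a protein. MRPS30 and MRPS18A carry small subunit symbols and sit in the large subunit in structures of the mammalian mitochondrial ribosome. Counting them with the large subunit left the medians at -0.51 (51 genes) and -0.47 (25 genes). The large minus small difference of means went from -0.046 to -0.017. MRPS30 was at 65.8 CPM in DMSO and 44.5 CPM in HD, a ratio of 0.677 (0.637 to 0.720), close to the family's median. In the other direction, 5 proteins of the mitochondrial ribosome have symbols outside the MRPL and MRPS series, and all 5 were lower with intervals excluding 1. GADD45GIP1 of the large subunit had a ratio of 0.640 (0.595 to 0.688). Among the small subunit proteins, AURKAIP1 had a ratio of 0.662 (0.629 to 0.696) and PTCD3 of 0.685 (0.656 to 0.716). DAP3, a GTP-binding protein of the small subunit, had a ratio of 0.815 (0.791 to 0.839) and CHCHD1 of 0.842 (0.772 to 0.918). With these 5 genes added and MRPS30 and MRPS18A moved, the medians were -0.54 (52 genes) and -0.47 (29 genes). KGD4, formerly named MRPS36 and now known as a subunit of the 2-oxoglutarate dehydrogenase complex, was at 33.5 CPM in DMSO and 32.2 CPM in HD, and its interval (0.887 to 1.04) held 1.

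The lowest ratios were found in the large subunit. MRPL39, a mitochondria-specific protein (chromosome 21), had 1266 counts in DMSO and 648 in HD, or 33.1 and 15.9 CPM, a ratio of 0.481 (0.436 to 0.529). MRPL16, the counterpart of bacterial L16 at the tRNA-binding face (chromosome 11), had 1999 counts in DMSO and 1040 in HD, or 52.3 and 25.5 CPM, a ratio of 0.489 (0.453 to 0.527). These 2 genes were the members past 2-fold, and both intervals reached above 0.5. MRPL46 followed with 42.9 CPM in DMSO and 22.2 CPM in HD, a ratio of 0.517 (0.476 to 0.561). MRPL3, a core protein of the large subunit, was at 153 and 85.3 CPM, a ratio of 0.556 (0.533 to 0.580).

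Proteins of the stalk, the flexible arm of the large subunit that recruits translation factors, did not share a ratio. MRPL11 at the stalk base, among the most abundant members in CPM, was at 180 CPM in DMSO and 97.1 CPM in HD, a ratio of 0.541 (0.520 to 0.562). MRPL12, which forms the stalk's tip and is also known to bind the mitochondrial RNA polymerase, was at 106 and 60.1 CPM, a ratio of 0.566 (0.538 to 0.595). MRPL10, which anchors MRPL12 to the ribosome, was at 49.8 and 48.7 CPM, a ratio of 0.978 (0.918 to 1.04). The intervals of MRPL11 and MRPL12 overlapped, and that of MRPL10 lay apart from both.

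The large subunit genes nearest to 1 were MRPL45, MRPL10, MRPL49, MRPL34 and MRPL48. MRPL45, which lies at the exit of the peptide tunnel facing the inner membrane, had 3074 counts in DMSO and 3221 in HD. Scaled for depth these are 80.4 and 79.1 CPM, a ratio of 0.984 (0.936 to 1.03). MRPL49 had a ratio of 0.943 (0.900 to 0.987), MRPL34 of 0.913 (0.838 to 0.994) and MRPL48 of 0.868 (0.815 to 0.925). With the length trend removed, MRPL45, MRPL10 and MRPL34 moved to log2 ratios of 0.077, 0.024 and 0.031. MRPL58, a peptidyl-tRNA hydrolase related to bacterial release factors that is built into the large subunit, was at 35.4 CPM in DMSO and 23.8 CPM in HD, a ratio of 0.674 (0.620 to 0.732).

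In the small subunit the lowest ratio was that of MRPS34, a mitochondria-specific protein (chromosome 16), with 2202 counts in DMSO and 1278 in HD, or 57.6 and 31.4 CPM, a ratio of 0.545 (0.508 to 0.584). MRPS2, the counterpart of bacterial S2, was at 57.8 and 32.4 CPM, a ratio of 0.560 (0.523 to 0.600). MRPS28 was at 9.76 and 5.50 CPM, a ratio of 0.565 (0.475 to 0.667) whose wide interval comes with only 373 and 224 counts. These were the fewest counts of any measured member. The annotated readthrough gene TPD52-MRPS28 had 0 counts in both libraries, and the part of read counting in the level of MRPS28 was not tested. MRPS7, a protein of the small subunit's head, was at 118 and 70.5 CPM, a ratio of 0.596 (0.569 to 0.625). MRPS12, part of the decoding centre, lay near the family's median with 62.9 CPM in DMSO and 43.1 CPM in HD, a ratio of 0.686 (0.645 to 0.730).

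At the other end of the small subunit, MRPS18A was the only measured member with a ratio above 1, at 12.4 CPM in DMSO and 13.0 CPM in HD, and its interval (0.924 to 1.19) held 1. MRPS6 was at 29.3 and 27.8 CPM, a ratio of 0.950 (0.874 to 1.03), and moved to a log2 ratio of 0.085 with the length trend removed. MRPS15 and MRPS21 had ratios of 0.852 (0.807 to 0.899) and 0.842 (0.784 to 0.904).

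Mammals carry 3 genes related to bacterial S18, and their products occupy different places on the ribosome. MRPS18C, which takes the bacterial protein's place in the small subunit, was at 12.2 CPM in DMSO and 8.30 CPM in HD, a ratio of 0.680 (0.589 to 0.783). MRPS18B, also of the small subunit, was at 52.1 and 33.9 CPM, a ratio of 0.651 (0.607 to 0.698). MRPS18A of the large subunit had the ratio above 1, and its interval lay above those of both relatives. Per length, MRPS18B was the most abundant of the 3, with 38.2 FPKM in DMSO and 24.8 FPKM in HD, against 10.2 and 10.7 FPKM for MRPS18A and 8.28 and 5.60 FPKM for MRPS18C.

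A single member fell under the filter. MRPS24, the counterpart of bacterial S3 (chromosome 7, 43866558 to 43869517), had 1 count in DMSO and 0 in HD, both within the 3 counts that a count of 0 allows (0.0785 CPM in DMSO and 0.0737 CPM in HD), so no ratio is given. The annotated readthrough gene URGCP-MRPS24, whose span covers all of MRPS24, had 0 counts in both libraries. Its upstream gene URGCP had 967 counts in DMSO and 1108 in HD. How reads over several genes were counted is not stated in the labels, and the part of that step in the low count was not tested.

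Proteins were next divided by origin, with MRPS18A and MRPS18B placed among the mitochondria-specific proteins after their structural names, although both are related to bacterial S18. The 45 measured genes with a bacterial counterpart had a median log2 ratio of -0.56, and the 31 mitochondria-specific genes a median of -0.44, a difference of -0.12. By the 1.5-fold rule 20 of 45 (44.4%) and 9 of 31 (29%) were lower, against 14.1% of all measured genes. The order of the medians was the same within the large subunit by structure (-0.57 for 30 genes against -0.45 for 21). It also held within the small subunit (-0.55 for 15 against -0.41 for 10). Differences of means were smaller, at -0.086 over all members, -0.11 within the large and -0.040 within the small subunit. The classes overlapped broadly, with ranges of -1.03 to -0.03 and -1.06 to 0.07. With the length trend removed the difference was -0.05.

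Levels between genes were compared per length, as deposited FPKM. In DMSO the measured large subunit genes ran from 8.03 to 141 FPKM with a median of 43.8, and the small subunit genes from 8.28 to 98.4 FPKM with a median of 36.0. In HD the medians were 30.7 and 24.8 FPKM. MRPL51 was the most abundant large subunit mRNA in FPKM (141 in DMSO, 89.3 in HD), followed by MRPL18 (131 and 91.8), which held the first place in HD. MRPS7 (98.4 and 58.4 FPKM) and MRPS15 (76.8 and 65.2 FPKM) led the small subunit, again with an exchange of places between libraries. The lowest of the large subunit were MRPL42 (8.03 and 6.12 FPKM) and MRPL19 (8.88 and 6.61 FPKM), and of the measured small subunit genes MRPS18C (8.28 and 5.60 FPKM), which was the lowest measured member in HD.

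The values of MRPL42 and MRPL19 rest on the lengths the authors used. MRPL42 had 4772 counts in DMSO, more than MRPL18 with 4738, and the length implied by its counts and FPKM was 15587 bases against 947 for MRPL18. For MRPL19 the implied length was 7825 bases. Across the 76 members, log2 FPKM in the 2 libraries correlated with Pearson's r of 0.965 and Spearman's rho of 0.928, over genes of the same 2 libraries. The ratio itself went little with level (rho of -0.16 with log2 mean FPKM, n = 76), length (0.08) or the GC content of the transcript (0.03).

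**Figure D2:**
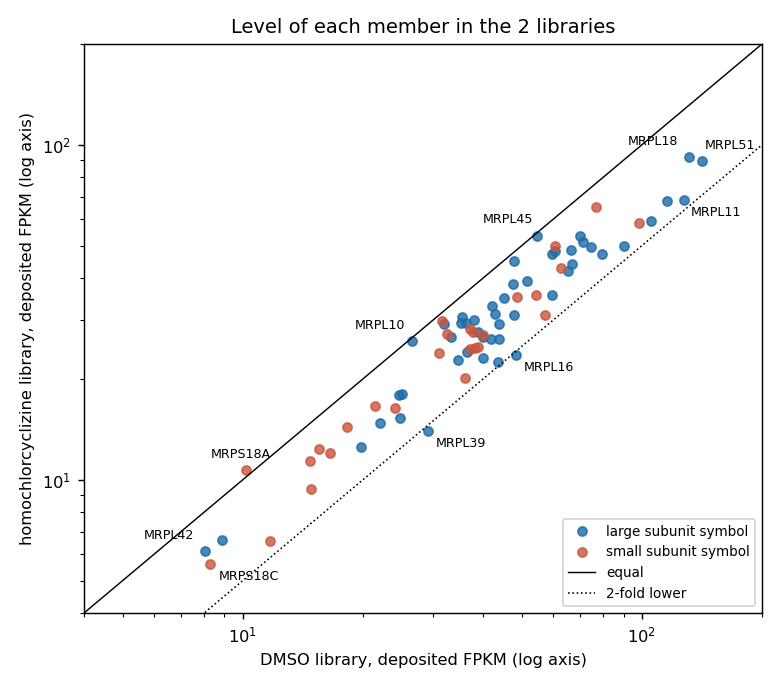
Deposited FPKM of the 76 measured members in the DMSO library (x axis) and the HD library (y axis), both on log axes, coloured by the subunit in the symbol. The solid line marks equal levels and the dotted line 2-fold lower. MRPL39 and MRPL16 lie at the dotted line, and MRPS18A, MRPL45 and MRPL10 at the solid line.

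Other nuclear genes that serve mitochondrial translation were also mostly lower. Of 32 measured assembly factors of the mitochondrial ribosome, 27 lay below 1 (median -0.47 on the log2 scale), against 51.1% of all measured genes. By the 2-fold rule 2 were lower and 0 higher, against 5.1% and 5.81% of all measured genes. By the 1.5-fold rule 6 were lower (18.8%) and 1 higher, where 14.1% of all measured genes were lower, so the calls lay near the background. MTERF3, which acts in ribosome biogenesis and mitochondrial transcription, was at 13.9 CPM in DMSO and 6.29 CPM in HD, a ratio of 0.453 (0.388 to 0.525). RBFA, a maturation factor of the small subunit, was at 22.3 and 11.0 CPM, a ratio of 0.492 (0.437 to 0.552). NSUN4, an RNA methyltransferase that pairs with MTERF4 in assembly, went the other way, at 42.0 and 66.8 CPM, a ratio of 1.59 (1.49 to 1.69). YBEY, an RNA-processing endonuclease, had a ratio of 1.33 (1.13 to 1.56).

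Of 18 measured translation factors and associated proteins, 15 were below 1 (median -0.34), 7 were lower by the 1.5-fold rule (38.9%) and 0 higher. Of all measured genes, 51.1% were below 1, and 14.1% were lower and 14.1% higher by that rule. The elongation factor GFM1 had a ratio of 0.588 (0.555 to 0.622) and SLIRP, which stabilises mitochondrial mRNAs, of 0.593 (0.543 to 0.647). OXA1L, which inserts new chains into the inner membrane, had a ratio of 1.05 (1.01 to 1.09) and the release factor-like MTRF1 of 1.28 (1.07 to 1.54). All 20 measured mitochondrial tRNA synthetases and related enzymes were below 1 (median -0.46), against 51.1% of all measured genes. By the 1.5-fold rule 7 were lower (35%, against 14.1% of all measured genes) and 0 higher. LARS2, the leucyl-tRNA synthetase, had a ratio of 0.544 (0.501 to 0.590), while WARS2 and PARS2 had ratios of 0.963 and 0.976 with intervals that held 1.

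Of 20 measured genes of mitochondrial transcription and RNA processing, 19 were below 1 (median -0.44), against 51.1% of all measured genes. By the 1.5-fold rule 3 were lower (15%, near the 14.1% of all measured genes) and 0 higher. PNPT1, the mitochondrial polynucleotide phosphorylase, had a ratio of 0.547 (0.523 to 0.572) and ELAC2, which trims tRNA ends, of 0.586 (0.556 to 0.618). FASTK and MTERF2 had ratios of 0.976 and 1.08 with intervals that held 1.

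Cytosolic ribosomal proteins and the mitochondrial mRNAs did not share the direction. The 44 measured large subunit proteins of the cytosolic ribosome had a median log2 ratio of 0.12 with 12 below 1. The 31 small subunit proteins had a median of 0.04 with 14 below 1, where 51.1% of all measured genes were below 1. By the 1.5-fold rule, which called 14.1% of all measured genes lower and 14.1% higher, 1 of these 75 genes was lower and 0 higher. The lower one was RPS26, with a ratio of 0.618 (0.598 to 0.638). The cytosolic genes are shorter still than the mitochondrial family, with median lengths of 995 and 799 bases. Whether length bears on the ratios of either family was not tested. RPL35 and RPS2 had ratios of 0.760 and 0.755, and RPL13A of 1.40 (1.38 to 1.42). RPL17, RPL5 and RPS9 had ratios of 0.883, 1.28 and 1.16. RPL17 had only 893 counts in DMSO and 840 in HD. It lies wholly inside the annotated readthrough gene RPL17-C18orf32, which had 0 counts in both libraries. The part of read counting in the level of RPL17 was not tested. Of the 13 protein-coding genes of the mitochondrial genome, whose mRNAs mitochondrial ribosomes translate, 11 were above 1 (median 0.40). The share of all measured genes above 1 was 48.9%. ND5 had a ratio of 1.74 (1.73 to 1.76) and ND6 of 1.74 (1.70 to 1.77). No strand setting is named, and whether reads of ND5 and ND6 were counted apart was not tested. COX1 and COX3 had ratios of 0.935 (0.930 to 0.939) and 0.973 (0.966 to 0.980).

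**Figure D3:**
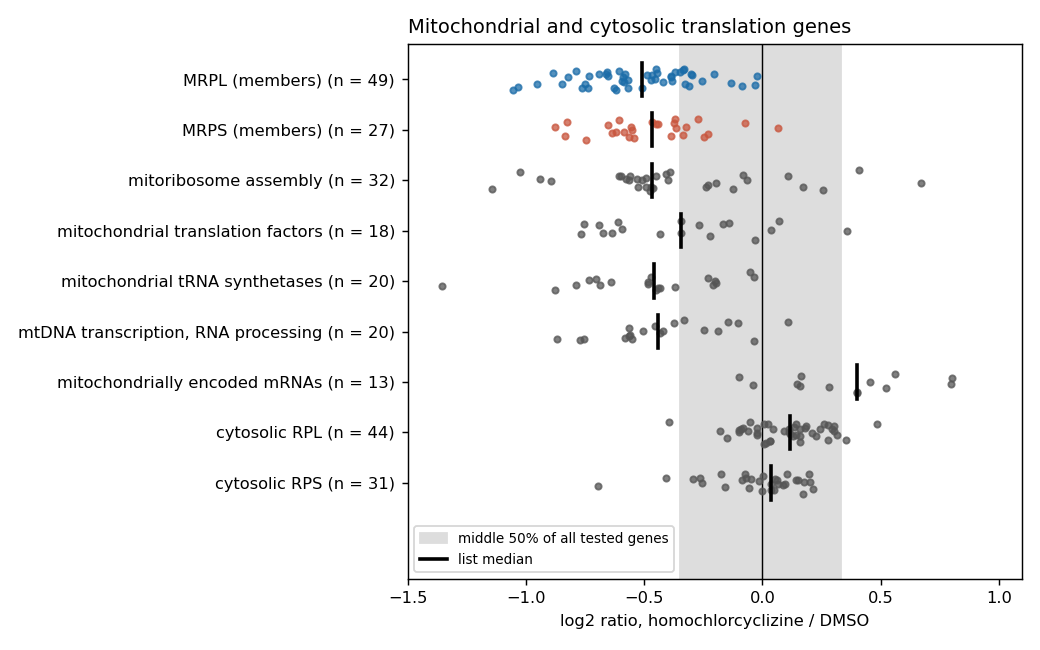
Log2 ratio of every measured gene of the large and small mitochondrial subunits, of the other lists of mitochondrial gene expression, and of the cytosolic ribosomal proteins. Points are genes, black bars are list medians, and the grey band spans the middle 50% of all 12353 measured genes (-0.35 to 0.33). Medians of the mitochondrial lists encoded in the nucleus run from -0.51 to -0.34, and the other 3 from 0.04 to 0.40.

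The members lie on 21 chromosomes, with at most 8 on any of them. Windows of 300 bases around the start site (250 before and 50 after, RefSeq, GRCh38.p14) matched 69 of the 77 members by symbol, and were searched on both strands for 4 short motifs. CCGGAAG, the core of ETS family sites such as those of GABP, stood in 29 of 69 windows (42.0%), in 19.4% of the windows of 10134 measured genes and in 10.7% of all 27305 windows. AAGATGGC, the core of YY1 sites, stood in 20 of 69 (29%), against 5.44% of measured genes and 3.03% of all windows. The full palindromic site of the factor NRF1 stood in 1 window (1.45%), that of MRPL17, against 2.27% and 1.36%. CACGTG, the E-box bound by MYC and other factors, stood in 6 (8.70%), against 10.2% and 7.43%. A match to these letters is a description and not a measured site.

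For the 2 commoner motifs, medians of members with and without a match differed in opposite directions. The median log2 ratio was -0.47 for the 29 measured members with CCGGAAG and -0.55 for the 39 without it. It was -0.56 for the 19 with AAGATGGC and -0.47 for the 49 without it. Over the measured genes with a window, medians with and without a match were -0.07 and -0.01 for CCGGAAG and -0.13 and -0.02 for AAGATGGC. They were -0.15 and -0.02 for the NRF1 site and -0.02 and -0.03 for CACGTG. Whether the motifs bear on the ratios was not tested. To show the letters behind these counts, the 250 bases before the start site follow for the lowest and the highest ratio in each subunit by symbol, and for MRPS11, chosen after its values were seen, whose upstream region is shared with MRPL46. They are written 5′ to 3′ on the gene's own strand, with any match to the 4 motifs on either strand in capitals.
MRPL39, chr21:25607482-25607731, minus strand: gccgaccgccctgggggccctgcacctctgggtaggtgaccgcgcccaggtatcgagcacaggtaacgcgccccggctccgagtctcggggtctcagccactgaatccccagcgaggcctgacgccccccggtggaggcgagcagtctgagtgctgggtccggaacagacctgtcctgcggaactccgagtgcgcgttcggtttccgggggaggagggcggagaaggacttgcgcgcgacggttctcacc
MRPL45, chr17:38296918-38297167, plus strand: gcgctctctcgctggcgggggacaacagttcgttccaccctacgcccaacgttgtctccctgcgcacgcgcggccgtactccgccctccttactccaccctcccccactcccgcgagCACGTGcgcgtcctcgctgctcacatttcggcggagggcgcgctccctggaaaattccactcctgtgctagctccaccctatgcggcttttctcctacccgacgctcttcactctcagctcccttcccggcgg
MRPS34, chr16:1773135-1773384, minus strand: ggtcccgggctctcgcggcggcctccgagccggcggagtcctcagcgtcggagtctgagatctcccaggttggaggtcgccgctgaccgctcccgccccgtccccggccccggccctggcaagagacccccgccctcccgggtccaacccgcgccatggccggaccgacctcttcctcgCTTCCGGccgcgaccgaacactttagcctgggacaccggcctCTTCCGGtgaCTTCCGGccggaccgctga
MRPS18A, chr6:43687792-43688041, minus strand: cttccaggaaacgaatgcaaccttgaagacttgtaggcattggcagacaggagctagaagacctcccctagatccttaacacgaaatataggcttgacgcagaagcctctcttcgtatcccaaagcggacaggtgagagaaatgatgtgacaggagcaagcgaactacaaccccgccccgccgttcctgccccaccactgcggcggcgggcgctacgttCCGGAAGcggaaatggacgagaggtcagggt
MRPS11, chr15:88467458-88467707, plus strand: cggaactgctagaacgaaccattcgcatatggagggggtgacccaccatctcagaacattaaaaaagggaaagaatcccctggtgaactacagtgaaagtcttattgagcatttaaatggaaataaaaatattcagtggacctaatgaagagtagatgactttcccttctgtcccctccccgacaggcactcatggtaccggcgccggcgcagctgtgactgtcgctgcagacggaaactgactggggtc
The window of MRPS34 holds CTTCCGG, the reverse complement of CCGGAAG, in 3 places. MRPS18A holds CCGGAAG at 31 bases before the start site, and MRPL45 holds CACGTG at 133 bases before it. None of the 4 motifs stands in the MRPL39 and MRPS11 sequences shown. The searched windows of MRPS18A and MRPL45 also hold AAGATGGC, which does not lie wholly within the bases shown, and those of MRPS34 and MRPL39 do not.

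Of the genes of the factors named for these sites, YY1 and NRF1 had intervals wholly below 1, and that of GABPA held 1. YY1 was at 146 CPM in DMSO and 119 CPM in HD, a ratio with an interval of 0.785 to 0.848. NRF1 was at 19.9 and 15.9 CPM, a ratio of 0.800 (0.719 to 0.889). GABPA was at 46.8 and 44.5 CPM, a ratio of 0.950 (0.890 to 1.01). Whether these factors bear on the family's ratios was not tested. Of the 9 measured regulators of the list, 7 were below 1 (median log2 ratio -0.29), against 51.1% of all measured genes. By the 1.5-fold rule 1 was lower (11.1%, near the 14.1% of all measured genes) and 0 higher. The lower one was the coactivator PPARGC1B, with a ratio of 0.610 (0.550 to 0.675). TFAM, the packaging and transcription factor of mitochondrial DNA, which is also on the list of mitochondrial transcription genes, had a ratio of 0.676 (0.645 to 0.709). ESRRA had a ratio of 1.20 (1.14 to 1.27) and MYC of 1.09 (1.06 to 1.12).

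Many members start close to another gene on the opposite strand. A head-to-head neighbour within 1000 bases was found for 26 of the 69 members (37.7%) and for 28.9% of the measured genes with a window. MRPL46 and MRPS11, a large and a small subunit gene on chromosome 15, face each other with start sites 320 bases apart. MRPL46 had a ratio of 0.517 (0.476 to 0.561) and MRPS11 of 0.683 (0.643 to 0.726), so 2 genes of the same region had intervals that did not overlap.

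Besides this pair, 17 measured neighbours that are not members were found, and 14 of them were below 1, against 51.1% of all measured genes, with a median log2 ratio of -0.20 where the facing members had -0.56. By the 1.5-fold rule 6 of the 17 (35.3%) were lower and 2 higher, against 14.1% of all measured genes in each direction. SARS2, the mitochondrial seryl-tRNA synthetase, faces MRPS12, and the ratios were 0.722 and 0.686. TCP1, a subunit of the cytosolic chaperonin, faces MRPL18, with 0.644 and 0.703. FAU, a cytosolic ribosomal protein gene, faces MRPL49, with 0.895 and 0.943. The DNA repair and mitosis genes EME1, SKA3 and NCAPD2 had ratios of 0.308, 0.276 and 0.422, well below those of the facing MRPL27 (0.602), MRPL57 (0.657) and MRPL51 (0.636). TMEM63B and HELQ, at 1.91 and 1.51, were higher by the 1.5-fold rule, while the facing MRPL14 and MRPS18C had ratios of 0.767 and 0.680. These neighbours were named after their values were seen.

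**Figure D4:**
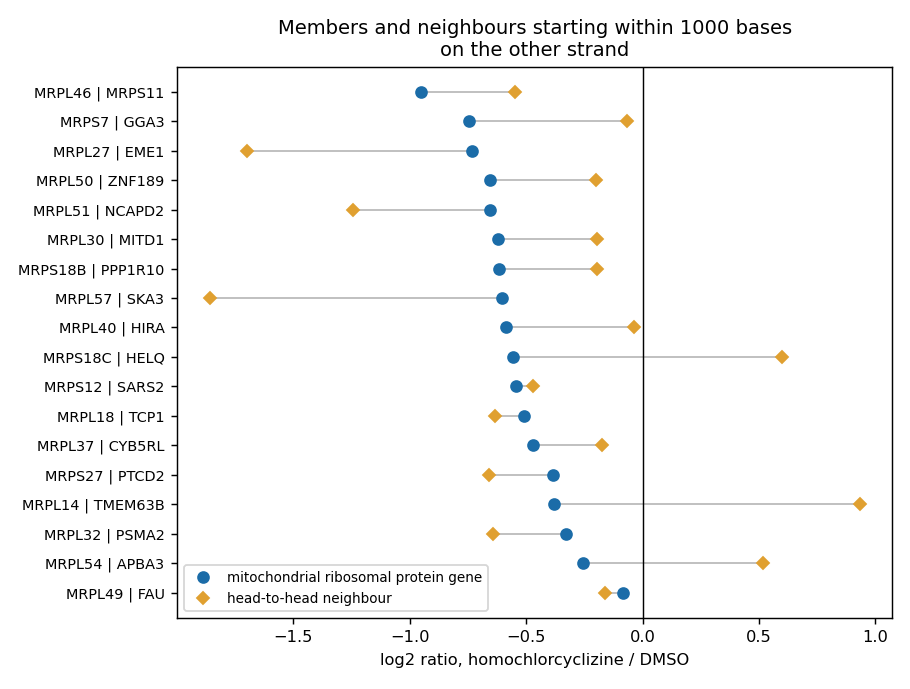
Log2 ratio, HD over DMSO, of members (circles) and of the measured gene that starts within 1000 bases on the other strand (diamonds), 1 pair per line, ordered by the member. Members run from -0.95 to -0.09 and neighbours from -1.86 to 0.93.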

How the data were processed

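Poly(A)-selected mRNA of Huh7 cells was sequenced in 1 library per group. The authors deposited raw counts per gene and, per library, FPKM values, and per the submitters' processing notes the build was hg38. No label or header names the aligner, the counting program, the strand setting or the annotation. The columns were tied to samples by the labels' descriptions.

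Library sizes were scaled with TMM (edgeR 4.0.16, R 4.3.3). Log2 ratios used CPM with a prior count of 1. Intervals, lists and motifs came from Python 3.11.15 scripts (scipy 1.17.1, pandas 2.3.3, numpy 2.4.6, statsmodels 0.14.6), and the ratio and size rule were tested on simulated data. A typical member's interval spans 1.07-fold to either side. PCR copies are not independent molecules. Gene lengths are those implied by counts and FPKM. Trends over length were removed by lowess. GC content came from GENCODE transcripts. Alternatives used totals or DESeq2 1.42.0 size factors, other filters, priors and summaries.

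The named members were the 5 lowest and 5 highest MRPL and the 4 lowest and 4 highest MRPS genes by ratio with a mean of at least 5 CPM, the 2 highest and 2 lowest of each by FPKM, and a fixed set including MRPL12, MRPL58, MRPS12, MRPS30 and the S18 genes. In other lists the 2 lowest and 2 highest were named, except for genes not reported here, and further names were chosen after values were seen. Members and lists were chosen with earlier results of these data known. RefSeq symbols place pseudogenes beside 41 members (100 in all), and reads may be split among such copies.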

Additional observations from a re-analysis of the deposited data

How the results depend on the processing

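With the trend over gene length removed, the family's median log2 ratio became -0.41, the members lower by the 2-fold rule went from 2 to 0 and by the 1.5-fold rule from 29 to 19, and the large minus small difference turned to 0.023. With GC content and length trends both removed, an alternative chosen after seeing the data, the rules counted 0 and 14 members, the median was -0.43 and the large minus small difference -0.026. MRPL10 turned to log2 ratios of 0.024 and 0.031 under these 2 settings, MRPL34 to 0.031 and 0.026, MRPL45 to 0.077 and 0.14, and MRPS6 to 0.085 and 0.13. Why the trend exists was not tested. Under scaling to totals, DESeq2's size factors, no filter, a filter of 5 CPM, prior counts of 0.25 and 5 and the FPKM ratio, the median stayed between -0.50 and -0.49, 75 members stayed below 1, and 27 to 31 were lower by the 1.5-fold rule. The median of all measured genes stayed between -0.02 and -0.01 in every setting. No paired analysis was possible because each group has 1 library. For the same reason no replicate was left out, and spread between cultures was not measured.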

Other observations

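Genes of the mitochondrial stress response, which answers faults in mitochondrial protein production, did not move as a group. Of 11 measured, 7 lay below 1 (median -0.21 on the log2 scale), against 51.1% of all measured genes. By the 1.5-fold rule 2 were lower and 2 higher (18.2% in each direction, near the 14.1% of all measured genes). The matrix chaperones HSPD1 and HSPE1 were at 1041 against 1941 CPM and 63.6 against 117 CPM (HD against DMSO), ratios of 0.536 (0.530 to 0.543) and 0.545 (0.519 to 0.572). The transcription factors ATF4 and DDIT3 were at 1.66-fold (1.63 to 1.68) and 2.20-fold (1.97 to 2.46) of DMSO. The protease LONP1, named after its values were seen, was at 175 against 140 CPM.

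The near absence of MRPS24 counts was set beside other genes that lie inside an annotated readthrough gene. For 60 readthrough genes of the table both partner genes were present, and 53 of the 60 had at most 3 counts over both libraries. Of 49 downstream partners lying wholly inside the readthrough span, 24 (49.0%, MRPS24 included) had at most 3 counts over both libraries, against 9 of 41 upstream partners (22%), 2 of 30 partners reaching outside the span (6.67%) and 23.8% of all protein-coding symbols. MOB4 and GNG10 are 2 such downstream genes, with 2 counts each. Other downstream genes wholly inside a span were well counted, such as RAB5IF with 2010 counts in DMSO and 1989 in HD. The comparison was made after the MRPS24 count was seen, and the part of the counting step was not tested.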
